A study of Mus musculus with 2 samples.

Results

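The nucleolar ribosome biogenesis genes are a set of 40 mouse genes whose protein products transcribe, fold, modify, cut and package ribosomal RNA or act on the new subunits. They were chosen by name, and all 40 were found by identifier among the 43346 Ensembl genes in the gene tables. Poly(A) RNA was sequenced from paired ends in primary megakaryocyte-erythroid progenitors (MEP), the shared precursors of red cells and of the megakaryocytes that shed platelets. There was 1 group, adult female C57BL/6J at 5 weeks of age with no genetic change or treatment named, and it had 2 biological replicates. Both libraries name the same donor entry and separate biosamples, so the spread between them may be partly technical. No comparison between conditions exists, and with 1 library on each side of the replicate comparison there is no test.

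Ribosome production starts when RNA polymerase I transcribes the ribosomal RNA precursor. Small nucleolar RNAs in protein complexes of the box C/D and box H/ACA kinds guide 2′-O-methylation and pseudouridylation of that precursor, and the small subunit processome and the large subunit factors assemble on it while it is cut. Blood progenitors divide fast and need many ribosomes, and inherited defects of this pathway, such as that of Sbds in Shwachman-Diamond syndrome, affect blood formation.

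The total estimated count was 79539457 for replicate 1 and 65305321 for replicate 2. Levels are given as TPM, in which abundance is corrected for transcript length and each library sums to 1000000, with the mean ± SD of both libraries. Of the 16 erythroid and megakaryocyte marker genes 15 reached a TPM of 1 in both libraries, with Gata1, the erythroid transcription factor, at 28.5 and 45.8. Granulocyte and monocyte genes were also abundant, with Mpo, the neutrophil granule peroxidase, at 10136 in replicate 1 and 6523 in replicate 2. Cd34 was at 69.1 and 91.9, although the labels describe the cells as negative for the CD34 protein. In bulk RNA, fewer cells of a type and less RNA per cell cannot be told apart.

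All 40 members were detected at a TPM of 1 or more in both libraries, against 46.9% of protein-coding genes. Of the members 21 reached a TPM of 50 in both, against 24.3% of detected protein-coding genes. The median member stood at 61.1 ± 8.25 TPM, with 55.2 in replicate 1 and 66.9 in replicate 2, and the median of the 10061 detected protein-coding genes at 16.4. The levels ran from 2.65 TPM for Noc3l to 1304 for Ncl, a 493.1-fold range. There were 16 members above a mean of 100 TPM and 6 below 10. Together the members held 0.412% of all TPM in replicate 1 and 0.563% in replicate 2.

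**Figure D1:**
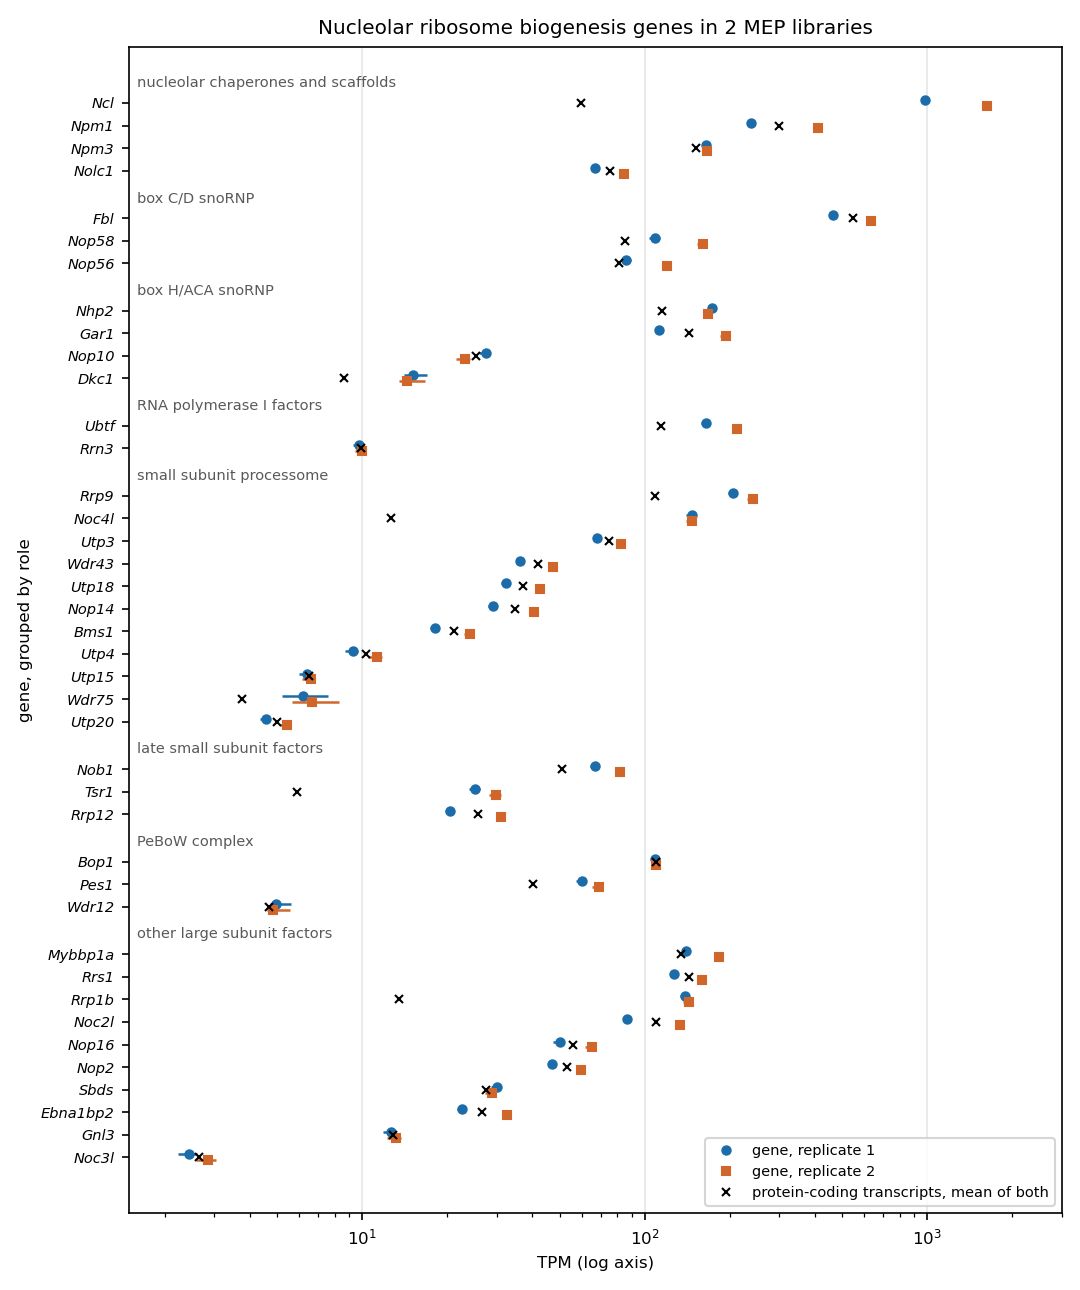
TPM (log axis) of the 40 genes grouped by role, with a circle for replicate 1, a square for replicate 2, the authors' TPM interval of each library as a line where wider than the symbol, and a cross for the mean TPM of protein-coding transcripts alone. Ncl is highest by gene and 16th by protein-coding transcripts, and Noc3l is lowest on both scales.

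The promoters of the members are shown first. A larger share of them than of promoters of detected genes held the E-box CACGTG, which Myc binds together with Max. The same was true of other motifs given below, such as the Ets core and the GC box. RefSeq promoters (GRCm38.p6, 250 bases before to 50 bases after the start) were present in the table used for 34 members; Rrs1, Rrp12, Bop1, Npm1, Sbds and Fbl had no entry. The E-box lay in 9 of the 34 (26.5%), against 10.7% of 8022 promoters of detected protein-coding genes and 7.2% of all 32851 promoters of that length. The promoter of Rrn3, which recruits RNA polymerase I, held 2 E-boxes, and the 8 other members held 1 each. The 250 bases before the Rrn3 start, chr16:13780449-13780698 on the plus strand, follow 5′ to 3′ with both E-boxes in capitals, their first bases 215 and 48 bases before the start.
Rrn3: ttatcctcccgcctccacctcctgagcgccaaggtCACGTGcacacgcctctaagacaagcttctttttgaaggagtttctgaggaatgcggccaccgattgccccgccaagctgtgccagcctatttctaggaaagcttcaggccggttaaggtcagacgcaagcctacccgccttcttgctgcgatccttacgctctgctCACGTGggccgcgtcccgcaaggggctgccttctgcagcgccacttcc

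In Nop2, a ribosomal RNA methyltransferase, and Utp18, a processome subunit, the E-box also lay before the start. Windows were cut around the E-box with up to 12 bases on each side, so all share it, and their flanks differed. Nop2 is read from chr6:125131811-125131840, plus strand, and Utp18 from chr11:93885769-93885798, minus strand.
Nop2: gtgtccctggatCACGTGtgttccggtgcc
Utp18: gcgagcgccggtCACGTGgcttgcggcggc
In the other 6 members the E-box began between base 3 and base 41, counted from the RefSeq start as base 1. Their windows are Pes1 at chr11:3963965-3963994 (plus strand), Utp4 at chr8:106893643-106893672 (plus), Wdr43 at chr17:71616220-71616249 (plus), Tsr1 at chr11:74898092-74898121 (plus), Utp20 at chr10:88826765-88826789 (minus) and Mybbp1a at chr11:72441355-72441376 (plus).
Pes1: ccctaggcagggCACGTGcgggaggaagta
Utp4: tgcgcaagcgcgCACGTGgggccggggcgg
Wdr43: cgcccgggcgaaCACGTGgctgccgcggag
Tsr1: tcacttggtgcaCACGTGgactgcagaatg
Utp20: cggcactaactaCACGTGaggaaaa
Mybbp1a: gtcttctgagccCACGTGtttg

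The Ets core CCGGAAG was found in 13 of the 34 promoters (38.2%), against 20.9% of those of detected genes, with either strand searched. The GC box GGGCGG was in 26 (76.5% against 68.9%) and CCAAT in 10 (29.4% against 38.5%). The letters TATAAA were in the promoters of Pes1 and Dkc1 alone, 5.9% in both sets. None of the 34 windows held AGATAAG, the motif of the GATA factors, which was in 1.6% of those of detected genes, nor the palindromic NRF1 motif (2.3%) or another palindrome searched (1.2%). The start of 1 window, that of Utp3, was a C followed by 4 pyrimidines (2.9% against 2.3%). The median GC content was 61.2% for the members and 62.0% for detected genes. Members with an E-box had a median of 37.5 TPM and those without one 75.02. Myc itself stood at 604 TPM in replicate 1 and 561 in replicate 2, and its partner Max at 94.2 and 85.3. Mnt, of the same Myc, Max and Mxd network, was at 195 and 248. Binding of any factor to these promoters was not measured.

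The nucleolar chaperones and scaffolds had the highest levels of the 8 roles, with a median of 245 ± 60.8 TPM over 4 genes. Nucleolin (Ncl), which binds nascent ribosomal RNA, is at chr1:86344719-86359400 on the minus strand and was at 979 TPM in replicate 1 and 1629.8 in replicate 2. Nucleophosmin (Npm1), a chaperone that shuttles between nucleolus and cytoplasm, was at 239 and 409.8 (chr11:33152287-33163206, minus strand). Both were higher in replicate 2, and the libraries of the 2 genes did not overlap. Its relative Npm3 was at 166 and 167, nearly level between the libraries. Nolc1, the chaperone of small nucleolar ribonucleoproteins also called Nopp140, was at 66.6 and 84.8.

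The 3 core proteins of box C/D particles had a median of 135 ± 36.7 TPM, and all 3 were higher in replicate 2. Fibrillarin (Fbl), the methyltransferase of the particle at chr7:28169710-28179269 on the plus strand, was at 465 TPM in replicate 1 and 632 in replicate 2. The paired scaffold proteins Nop58 and Nop56 were lower, Nop58 at 109 and 161 and Nop56 at 86.3 and 120.3. Fbl exceeded Nop56 5.32-fold, with a log2 ratio of 2.41 ± 0.03. Nop56 and Nop58 did not differ by the rule used for pairs: same sign in both libraries, mean log2 ratio over 1 in size, and separate authors' intervals in each library. Their log2 ratio was -0.38 ± 0.06.

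Box H/ACA proteins covered a wider range, with a median of 89.0 ± 18.3 TPM. Nhp2, an RNA-binding core protein, was at 173 and 168 TPM, and Gar1, another core protein, at 112 and 193. The small linker protein Nop10 was at 27.4 and 23.2. The pseudouridine synthase Dkc1 (dyskerin) was lowest at 15.2 and 14.5, with separate levels from the other 3 in both libraries. Nhp2 exceeded Dkc1 11.5-fold (log2 ratio 3.52 ± 0.02), and Nop10 was below Gar1 by a log2 ratio of -2.55 ± 0.73, the pair with the largest spread between libraries of the 18 compared.

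Of the RNA polymerase I factors, Ubtf, which binds the ribosomal RNA gene promoter, was at 165 and 212 TPM. Rrn3, the factor that carries the polymerase to the promoter, was at 9.88 ± 0.17 over both libraries, 18.9-fold lower by mean log2 ratio. That log2 ratio of Ubtf to Rrn3 was 4.24 in gene-level TPM, 3.52 in protein-coding transcripts alone and 3.58 in counts. The 21 other polymerase I subunits and partners had a median of 15.5 TPM, and Tcof1 (treacle), another nucleolar factor of this step, was at 172 and 198.

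The 11 small subunit processome members had a median of 34.8 ± 8.19 TPM and spanned from Utp20 to Rrp9. Rrp9, a protein of the U3 particle, was at 204.8 TPM in replicate 1 and 241 in replicate 2. Noc4l was at 147 in both libraries and its partner Nop14 at 29.0 and 40.6. By gene-level TPM Rrp9 and Noc4l thus stood above all the other processome members in both libraries. In protein-coding transcripts alone Rrp9 was still highest, at 98.1 and 119.9 TPM. Noc4l was then at 11.9 and 13.4, below Utp3, Wdr43, Utp18, Nop14 and Bms1.
Utp3 was at 67.8 and 82.3 TPM, Wdr43 at 36.1 and 47.4, Utp18 at 32.3 and 42.7, and the GTPase Bms1 at 18.2 and 24.0. All 4 were higher in replicate 2, and among them only Wdr43 and Utp18 overlapped. Utp4, Utp15, Wdr75 and Utp20 were the low end, at 9.28 and 11.3, 6.36 and 6.58, 6.16 and 6.65, and 4.58 and 5.41. Utp4, Utp15, Wdr43 and Wdr75 belong to the same early-acting subcomplex, whose members bind the start of the precursor. Wdr43 nonetheless exceeded Wdr75 6.46-fold (log2 ratio 2.69 ± 0.20), and the ratio was larger in protein-coding transcripts alone (3.46) and in counts (4.22). Utp4 and Utp15 did not pass the pair rule (0.66 ± 0.17).

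The late small subunit factors were near that level, at a median of 27.4 ± 4.29 TPM. Nob1, the endonuclease that makes the final 3′ cut of 18S ribosomal RNA, was at 66.6 and 81.6, Tsr1 at 25.0 and 29.8 and Rrp12 at 20.5 and 31.1. All 3 were higher in replicate 2.

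In the large subunit branch is the PeBoW complex, needed to process the precursor of 28S and 5.8S ribosomal RNA. The RNA levels of its subunits were unequal, and protein levels were not measured. Bop1 was at 109 TPM in both libraries, Pes1 at 60.2 and 68.7, and Wdr12 at 4.96 and 4.85. Wdr12 was 22.2-fold below Bop1 and 13.1-fold below Pes1, and both ratios passed the rule. Pes1 and Bop1 did not (log2 ratio -0.76 ± 0.13), but in protein-coding transcripts alone their ratio was -1.45 ± 0.25, past the size limit.
The 10 other large subunit factors had a median of 55.5 ± 9.63 TPM. Mybbp1a was at 139.6 and 184, Rrs1 at 127 and 159, Rrp1b at 139.5 and 144, and Noc2l at 86.8 and 133. Nop16, at 50.2 and 65.1, and the methyltransferase Nop2, at 47.1 and 59.5, were intermediate. Sbds, which helps release the anti-association factor Eif6 from the new large subunit, was at 30.1 and 28.9, and Eif6 itself at 259 and 258. Ebna1bp2, which works with Rrs1, was at 22.5 and 32.6, 5.25-fold below it, and the nucleolar GTPase Gnl3 (nucleostemin) was at 12.6 and 13.2, against 1.22 and 2.04 for its paralog Gnl3l. Noc3l was lowest of all members at 2.44 and 2.85, 40.6-fold below Noc2l, with which it forms a dimer. The share of other gene pairs that would pass the rule was not computed, so the count of pairs has no baseline. In all, 14 of the 18 pairs passed it. Npm1 over Npm3 did not (log2 ratio 0.91 ± 0.54), and that of Nop14 to Noc4l, -2.10 ± 0.34 in TPM, was -0.21 in counts not corrected for length and no longer passed. In those counts Npm1 over Npm3 passed (1.195), so 14 pairs passed there too, but not the same 14. Other pairs whose ratio moved by over 1.5-fold in counts were, by log2 ratio, Ncl to Nolc1 (1.91), Nhp2 to Dkc1 (2.45), Wdr12 to Pes1 (-3.08), Gnl3 to Gnl3l (2.02), and Nop56 to Nop58 (0.42) and Utp4 to Utp15 (-0.24), which turned sign and still did not pass. In protein-coding transcripts Wdr12 to Pes1 was -3.09.

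**Figure D2:**
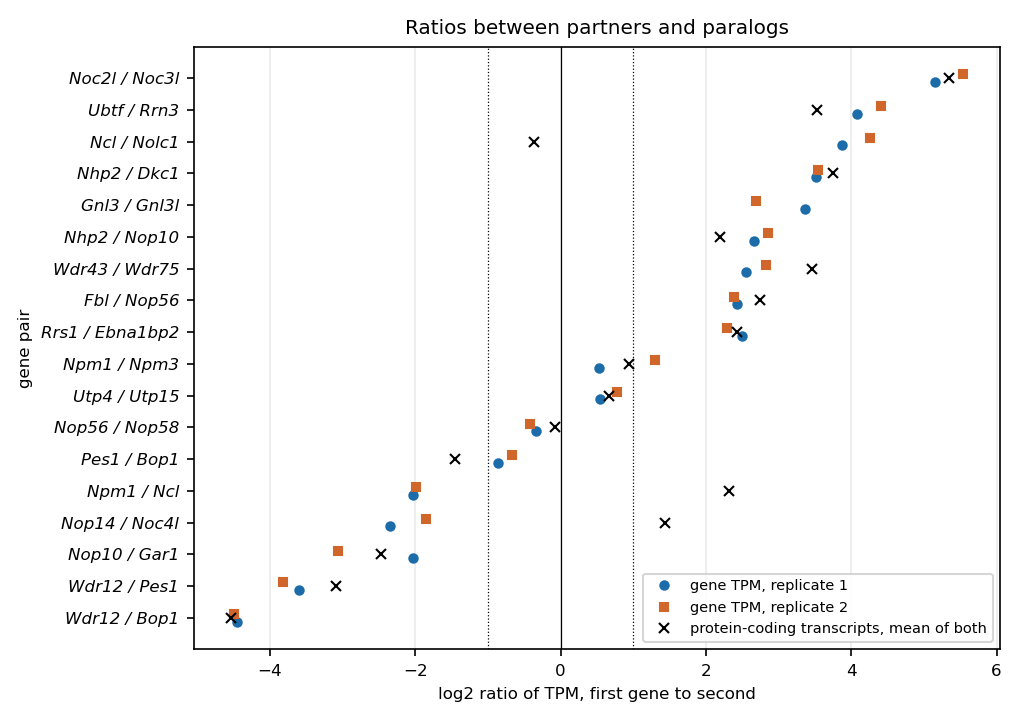
Log2 ratio of TPM, first gene to second, for 18 pairs of partners and paralogs, with a circle for replicate 1, a square for replicate 2 and a cross for protein-coding transcripts alone; dotted lines mark a log2 ratio of 1 in either direction. Noc2l over Noc3l is the highest ratio and Wdr12 over Bop1 the lowest, and for Ncl over Nolc1, Npm1 over Ncl and Nop14 over Noc4l the cross lies on the other side of 0.

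Gene-level TPM sums all annotated transcripts of a gene, and for 5 members under 50% of it lay in protein-coding transcripts in both libraries, against 17.8% of detected protein-coding genes. These were Ncl (4.76% in replicate 1 and 4.46% in replicate 2), Noc4l (8.12% and 9.13%), Rrp1b (10.4% and 8.67%), Tsr1 (18.03% and 24.5%) and Rrp9 (47.9% and 49.7%). In 25 members the share exceeded 90% in both libraries. The most abundant transcript was the same in both libraries for 37 members, against 90.8% of detected protein-coding genes. It differed for Nop58, Wdr75 and Noc4l.

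The level of Ncl rested on 1 short transcript. Ncl-205, a 601-base model of 2 exons annotated as a retained intron, was at 844 TPM in replicate 1 and 1402 in replicate 2, 86.2% and 86.0% of the gene. Of its 601 bases 425 (70.7%) coincided with exons of the protein-coding models, so reads there match both. It took 50.7% and 50.3% of the estimated counts, and Ncl-202, a 3072-base retained-intron model, 33.9% and 35.4%.
Ncl-201, the full-length protein-coding model, took 13.1% and 12.2% of the counts and was at 12.4 and 19.2 TPM. Its annotated length is 8202 bases, of which 5901 follow the stop codon in its last exon, whereas Ncl-205 and Ncl-202 end 124 and 125 bases past that stop codon. The part of these annotated ends in how the counts were shared was not tested. In protein-coding transcripts alone Ncl was at 46.6 and 72.7 TPM. Most of this lay in Ncl-203, a 661-base protein-coding model of 3 exons, at 34.2 and 53.5 TPM. Ncl-203 took 2.32% and 2.17% of the counts.

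Shorter models also led in other members. A retained-intron model of 1369 bases held 79.9% and 74.2% of the TPM of Tsr1, and another of 489 bases 61.5% and 49.9% of that of Rrp1b. By counts the protein-coding share of Rrp1b, whose protein-coding model is 4874 bases long, was 58.3% and 48.1%. For Ubtf a retained-intron model of 480 bases held 36.5% and 38.5% of TPM but 5.51% and 6.1% of counts. The short models of Rrp1b and Ubtf thus had larger shares of TPM than of counts.

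**Figure D3:**
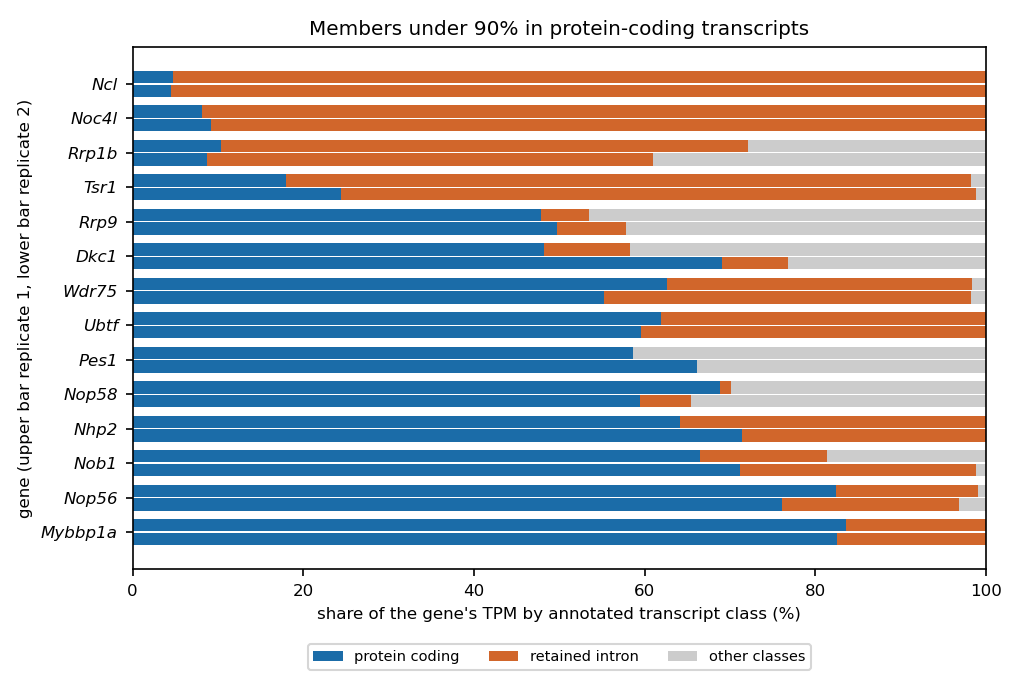
Share of a gene's TPM (percent) in transcripts annotated as protein coding, as retained intron, or in other classes (mainly nonsense-mediated decay and processed transcripts), for the 14 members with a mean protein-coding share under 90%; the upper bar is replicate 1 and the lower bar replicate 2. Ncl and Noc4l are almost wholly retained intron by TPM in both libraries.

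On protein-coding transcripts alone, all 40 members still reached a TPM of 1 in both libraries, and 15 reached 50, against 18.7% of detected protein-coding genes on the same scale. The median member was at 41.1 TPM and the median detected gene at 11.3. By the mean of both libraries Fbl then led, at 465 and 632, followed by Npm1 at 228 and 369 and Npm3 at 154 and 149.5. In replicate 2 alone Gar1 (176), Rrs1 (159) and Mybbp1a (152) were above Npm3. Ncl moved from the first rank to the 16th and Noc4l from the 10th to the 31st. Rrp1b moved from the 12th to the 29th, at 14.46 and 12.45 TPM in replicates 1 and 2. Tsr1 moved from the 28th to the 36th, at 4.51 and 7.28, and Rrp9 from the 4th to the 11th. The ratio of Npm1 to Ncl turned from a log2 of -2.01 to 2.32, that of Nop14 to Noc4l from -2.10 to 1.44, and that of Ncl to Nolc1 from 4.07 to -0.37. The order of these 3 pairs thus depends on the transcript classes counted. Short models remain on this scale too, such as the 661-base Ncl-203. For Nop58, at 75.0 and 95.7 TPM here, models of 461, 638 and 639 bases held most of the level. Its longer models Nop58-201 and Nop58-215 were at 2.71 and 2.61 TPM by the mean of both libraries.

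In all, 7 of the 40 members carry 21 annotated small nucleolar RNA genes within their bounds on the same strand, against 1.83% of detected protein-coding genes with at least 1. These are Nop56 with 5, Nop58 with 4, Ncl, Wdr43 and Gnl3 with 3 each, Tsr1 with 2 and Dkc1 with 1. Of the 7 core proteins of C/D and H/ACA particles 3 were hosts (Nop56, Nop58 and Dkc1) and 4 were not (Fbl, Nhp2, Gar1 and Nop10). The host members had a median of 41.8 TPM and the 33 others 64.5.

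Processed pseudogenes could share reads with some members. For 9 members 14 near-identical copies (at least 90% identity over at least 80% of the shorter transcript) had values, and 2 copies reached a TPM of 1 in both libraries. These were Gm5812, a copy of Fbl, at 5.70 and 9.37 TPM, and Npm3-ps1 at 1.94 and 1.18, both far below the member. The search used only the most abundant transcript of each member. For Ncl, Rrp1b and Ubtf that was a short retained-intron model, with 70.7%, 78.3% and 64.8% of its bases in protein-coding exons. Spliced copies of these 3 could thus fall short of the 80% limit, and finding none does not show that none exist.

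Members with GC-rich transcripts had higher levels. Of the 19 members whose most abundant transcript had a GC content of 50% or more, 17 reached a mean of 50 TPM, and of the 21 below that content 5 did. Across the 40 genes, log level and GC content had a Pearson r of 0.45 and a Spearman rho of 0.50, and log level and log transcript length an r of -0.54 and a rho of -0.53. Over 10060 detected protein-coding genes the same values were 0.35 and 0.37 for GC content, and -0.29 and -0.28 for length. These are descriptions across genes of the same libraries, which are not independent replicates, and TPM contains the length itself. The transcript that gave length and GC content was also chosen by TPM. It was a short model for Ncl (601 bases), Noc4l (680), Rrp1b (489) and Ubtf (480), so the relations depend in part on that choice.

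**Figure D4:**
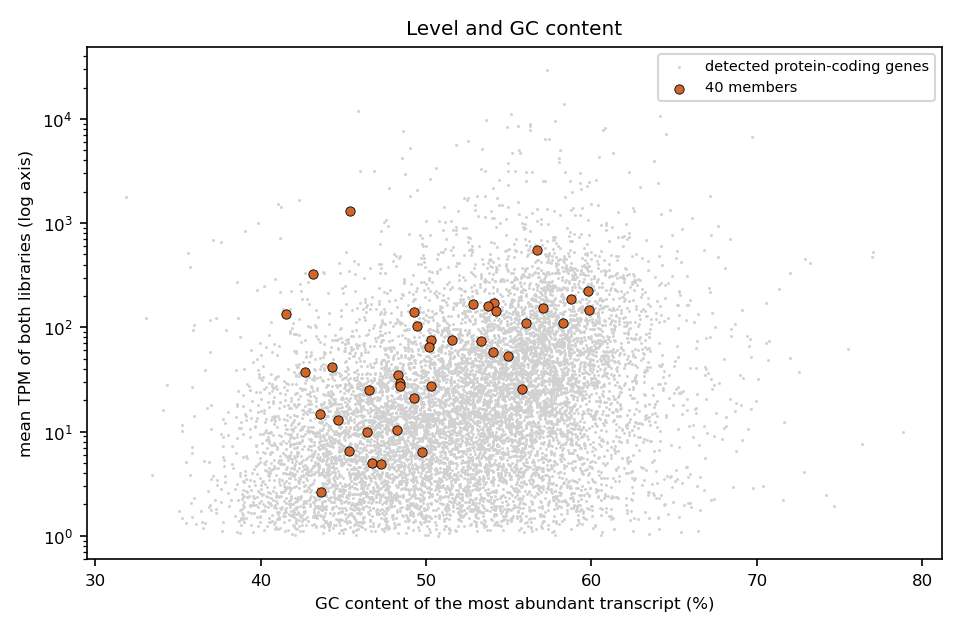
Mean TPM of both libraries (log axis) against the GC content (percent) of the most abundant transcript, with grey points for detected protein-coding genes that passed the count filter and orange points for the 40 members. Between 50% and 55% GC the members had a median of 75.02 TPM and the detected genes 16.98.

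The 2 libraries did not hold the members at the same level. On the log2 CPM scale (counts per 1000000 with TMM scaling) 29 of 40 were higher in replicate 2, against 49.8% of the 13546 genes tested, and the median difference, replicate 1 minus replicate 2, was -0.21, a 1.15-fold higher level in replicate 2. The median of all genes tested was 0.00, and that of the 2592 protein-coding genes with a mean of 50 TPM or more 0.04, of which 1117 were higher in replicate 2. Scaling moved the split: by library totals alone 33 and by TPM 34 of 40 were higher in replicate 2, against 56.5% and 59.8% of all genes, whose median moved to -0.06 and -0.07.

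The difference was small for each gene. Over 1.5-fold apart were 2 members, both higher in replicate 2, against 19.3% of all genes tested in either direction and 10.1% in that direction. Among the 2592 protein-coding genes with a mean of 50 TPM or more the shares were 5.98% and 1.93%. These were Ncl (log2 difference -0.63) and Gar1 (-0.59). Nop58 (-0.58), Npm1 (-0.57), Noc2l (-0.52) and Rrp12 (-0.50) came next. By library totals alone Nop58 and Npm1 also passed 1.5-fold, and by TPM Noc2l and Npm1.
None was over 2-fold apart, against 6.4% of all genes tested and 0.81% of those 2592 genes. The highest in replicate 1 were Nop10 (0.35) and Sbds (0.22). The median size of the difference was 0.22 for the members, 0.25 for all genes tested, 0.21 for detected protein-coding genes and 0.17 for those with a mean of 50 TPM or more. For Npm3, Dkc1, Bop1, Rrp1b, Utp15, Gnl3 and Rrn3 the sign differed between CPM and TPM, so the direction of these 7 is uncertain. Counts of members higher in a library place them by the sign in CPM unless another scale is named.

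**Figure D5:**
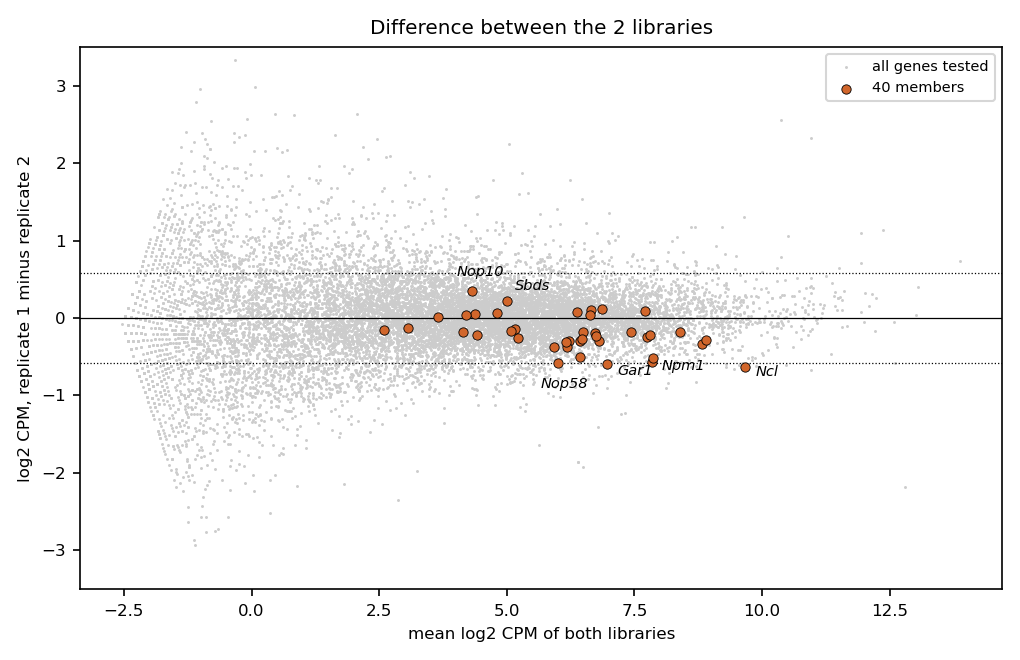
Log2 CPM of replicate 1 minus replicate 2 against the mean log2 CPM of both libraries, with grey points for all 13546 genes tested and orange points for the 40 members; dotted lines mark 1.5-fold. The members lie between -0.63 (Ncl) and 0.35 (Nop10), with 29 below 0.

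By role, the median difference was -0.41 for the chaperones and scaffolds, -0.34 for box C/D and -0.27 for the late small subunit factors. It was -0.20 for the other large subunit factors and -0.18 for the processome, and 0.02 for PeBoW, -0.05 for H/ACA and -0.06 for the RNA polymerase I factors. All members of the C/D and late small subunit roles were higher in replicate 2. The 7 members that host small nucleolar RNA genes had a median of -0.29, the 33 others -0.18, and 177 other host genes 0.00. The 9 members with an E-box had a median of -0.24, with 8 higher in replicate 2, and the 25 without one -0.18, with 17 higher.

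Of 163 symbols on 5 lists of other genes of the pathway, which hold none of the members, 147 matched a gene in the tables and 16 did not. All 147 were detected in both libraries. Their median was 19.8 TPM, with 40 genes at 50 or more in both libraries, and their median difference -0.06, with 87 higher in replicate 2. The 55 other large subunit factors had a median of 21.1 TPM and a difference of -0.17, with 39 higher in replicate 2. Nop53, which docks the RNA exosome, was at 464 and 585 TPM and Ppan at 407 and 619.
The 45 other small subunit factors (18.5 TPM) had a difference of -0.02, with 24 higher in replicate 2. The 21 RNA polymerase I genes were at -0.02, with 11 higher. The 13 genes of small nucleolar ribonucleoprotein assembly (17.7 TPM) were at 0.01 and the 13 exosome genes (13.1 TPM) at 0.00. In the assembly list Snu13, the fourth core protein of box C/D particles, was at 256 and 247 TPM, and Znhit6, an assembly factor, at 8.91 and 17.98.

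The libraries also differed in other genes. The granulocyte and monocyte list held 3.30% of TPM in replicate 1 and 1.92% in replicate 2, with 13 of its 14 tested genes higher in replicate 1 (median 0.77). All 7 tested B cell genes were higher in replicate 1 (median 0.88; 0.0103% and 0.0047% of TPM). Of the T and NK cell list 1 of 7 genes was detected in both libraries. The erythroid and megakaryocyte list held 0.144% and 0.248% of TPM, with 14 of 16 genes higher in replicate 2 (median -0.22), and all 8 stem and multipotent progenitor genes were higher there (median -0.56; 0.0235% and 0.0365% of TPM).
No listed marker was at 0 counts in both libraries. Myc had a log2 difference of 0.25, opposite in sign to the median of the members, whereas its paralog Mycn, at 12.1 and 22.5 TPM, was at -0.84. The 11 listed genes of the Myc, Max and Mxd network had a median of -0.025, with 6 higher in replicate 2 and 5 in replicate 1. The part of these other differences in the shift of the members was not tested.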

How the data were processed

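Values per gene and per transcript were deposited for both libraries. Per the file headers, the authors gave estimated counts (expected counts, not whole numbers), TPM and FPKM values, the percent of a gene's abundance in each transcript, and posterior mean TPM with interval bounds, which are treated as a score because they sum to slightly over 1000000. The interval level is not stated, and the TPM of Ncl, Fbl and Noc2l lay outside its own interval in replicate 2. The labels give mm10 and the files deposited with the samples GENCODE M4; which program made the estimates, and with which strand setting, is not given in the sources. Of 43346 Ensembl identifiers 42462 matched GENCODE M21 (GRCm38), which gave symbols, transcript classes and coordinates; 26248 numeric rows and 97 other rows held at most 1 count and were left out.

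Estimated counts were rounded and scaled with edgeR 4.0.16 (TMM factors 0.980 and 1.02, filterByExpr, prior count 2; R 4.3.3), which left 13546 genes and all members. DESeq2 1.42.0 gave alternative size factors. Copies were searched with blastn 2.17.0. Pair ratios used a pseudocount of 0.01 TPM. The scaling step was tested on simulated data. Promoter windows agreed in strand with the gene's transcripts for 31 of 34 members and, when reversed, for 0. Of the genes outside the set, the text could name the 4 highest and 2 lowest of each list and the 2 with the widest gap between replicates among those with a mean TPM of at least 5, together with pair genes, expressed copies, Myc, Max and Gata1. The members, lists, pairs and motifs were chosen with earlier results of these data known. Intervals cover quantification error within 1 library only. Protein sequences were not used here.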

Additional observations from a re-analysis of the deposited data

How the results depend on the processing

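No paired analysis was possible because there is 1 group and nothing to pair across. Members had 424 to 67340 estimated counts in a library. All 40 members were detected under each alternative except a TPM threshold of 5, which left 37. The count at 50 TPM or more was 20 to 22 with FPKM, posterior means, copies added or 1 library left out, and 15 in protein-coding transcripts alone, a setting added after the transcript shares were seen. The median of 61.1 TPM became 50.1 as FPKM, 52.6 as a geometric mean and 41.1 in protein-coding transcripts alone, and 55.2 to 66.9 when 1 library was left out. The shift of -0.21 stayed between -0.19 and -0.28. The count over 1.5-fold rose from 2 to 4 by library totals alone and by log2(TPM + 1) with a pseudocount of 1. Pairs passing the rule numbered 14 of 18, with 15 in replicate 2 alone. In protein-coding transcripts alone, without the interval condition, 13 of 17 passed, and Gnl3 and Gnl3l had no value. These 13 were not all the same pairs. Npm1 to Ncl and Nop14 to Noc4l passed with the sign turned, Pes1 to Bop1 was added, and Ncl to Nolc1 no longer passed.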
